A study of Mus musculus with 4 samples.

Results

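The 10 genes Slc2a1, Slc2a3, Hk1, Hk2, Pfkp, Aldoa, Gapdh, Pgk1, Pkm and Ldha encode proteins that carry glucose into the cell and convert it to pyruvate and lactate. They were chosen by name, from textbook roles, at a time when earlier results of these data were known. All 10 were found among the 31053 gene identifiers of the libraries. Single T cells had been sorted by flow cytometry from the meninges and from the choroid plexus of mice and profiled by single-cell RNA sequencing, and the study compared old with young animals in both tissues. There were 4 libraries, 1 per condition, from meninges and from choroid plexus of young mice and from the same tissues of aged mice. Per the study's methods the mice were female C57BL/6, the young ones 10 weeks and the aged ones 18 months old, with no treatment or transgene given, and each library pooled the cells of 5 mice, so variation between mice could not be measured. Within each library T cells were divided by their transcripts into CD4 cells (a Cd4 molecule and none of Cd8a or Cd8b1), CD8 cells (the reverse) and cells with neither, which include many CD4 or CD8 cells whose transcript was missed.

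T cells carry glucose across the membrane through facilitative transporters of the Slc2a family. Hexokinases trap it as glucose 6-phosphate, phosphofructokinase commits it to glycolysis and aldolase splits the sugar. Gapdh, phosphoglycerate kinase and pyruvate kinase then recover ATP and NADH from the pieces, and lactate dehydrogenase turns pyruvate into lactate and restores NAD+. Naïve T cells run this pathway at a low rate and depend mainly on mitochondrial respiration, and they raise it when they are activated and divide. Aerobic glycolysis is also known to sustain cytokine production by effector T cells.

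The genes lie on several chromosomes. In the GENCODE vM21 annotation of GRCm38 (mm10), Slc2a1 spans chr4:119108711-119137983, Slc2a3 chr6:122727809-122801640, Hk1 chr10:62268855-62379908, Hk2 chr6:82725025-82774454, Pfkp chr13:6579768-6648777, Aldoa chr7:126795234-126800751, Gapdh chr6:125161715-125166467, Pgk1 chrX:106187100-106203699, Pkm chr9:59656368-59679375 and Ldha chr7:46841475-46855627. Several of them are textbook targets of the oxygen-sensing factor HIF-1, whose binding core reads ACGTG or GCGTG. Of the 10 genes, 9 had a promoter in the RefSeq table (GRCm38.p6), all except Slc2a3, and all 9 held 1 of these cores on either strand within the 250 bases before at least 1 annotated start. Of their 14 starts, 11 held a core (78.6%), against 38.6% of the 32851 promoters of the same length in the table. The stretches of Aldoa starts 2 and 3 overlap and hold the same core, so the 11 are not all separate sites. Hk1, Aldoa, Pkm and Ldha had 2 or 3 starts each, which gives a gene more chances to hold a core. The share of all genes with a core before at least 1 start was not computed. The count of 9 genes therefore cannot be read as a result about the members. A match is a description of letters only. The 5 stretches below are shown as examples of promoters that hold a core, from genes between glucose entry and lactate formation. They are written 5′ to 3′ on the gene's strand, with the cores of either strand in capitals. Slc2a1 covers chr4:119108495-119108744 (plus strand), Hk2 chr6:82774455-82774704 (minus strand), the second Aldoa start chr7:126799255-126799504 (minus strand), Pgk1 chrX:106186850-106187099 (plus strand) and the first Ldha start chr7:46845554-46845803 (plus strand).
Slc2a1: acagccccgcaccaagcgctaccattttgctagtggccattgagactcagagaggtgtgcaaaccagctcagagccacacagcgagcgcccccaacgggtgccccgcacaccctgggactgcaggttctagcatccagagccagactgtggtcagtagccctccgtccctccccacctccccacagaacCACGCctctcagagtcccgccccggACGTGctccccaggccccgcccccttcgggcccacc
Hk2: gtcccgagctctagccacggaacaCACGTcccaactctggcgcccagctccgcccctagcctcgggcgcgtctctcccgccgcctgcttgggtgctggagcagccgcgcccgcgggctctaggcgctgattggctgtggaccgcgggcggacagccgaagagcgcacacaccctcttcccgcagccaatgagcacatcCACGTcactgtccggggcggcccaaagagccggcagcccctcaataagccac
Aldoa: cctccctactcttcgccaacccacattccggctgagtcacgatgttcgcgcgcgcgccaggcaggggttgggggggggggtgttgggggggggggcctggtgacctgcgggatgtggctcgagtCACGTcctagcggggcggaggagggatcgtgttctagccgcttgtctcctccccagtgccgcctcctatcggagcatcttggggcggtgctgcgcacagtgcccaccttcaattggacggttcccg
Pgk1: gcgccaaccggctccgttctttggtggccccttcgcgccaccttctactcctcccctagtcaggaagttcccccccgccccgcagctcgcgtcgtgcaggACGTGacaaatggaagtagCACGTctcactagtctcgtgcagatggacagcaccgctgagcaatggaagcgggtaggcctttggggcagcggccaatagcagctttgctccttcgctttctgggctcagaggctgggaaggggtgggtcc
Ldha: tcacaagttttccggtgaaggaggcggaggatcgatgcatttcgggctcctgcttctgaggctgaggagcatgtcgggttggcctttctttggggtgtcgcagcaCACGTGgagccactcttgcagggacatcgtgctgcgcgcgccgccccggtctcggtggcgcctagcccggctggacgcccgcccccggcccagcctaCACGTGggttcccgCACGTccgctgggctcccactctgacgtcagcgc
The Ldha stretch held 5 matches of ACGTG counted over both strands, since each of its 2 CACGTG letters reads the same on both. CACGTG, which also binds Myc and its relatives, was present in 6.02% of all promoters.

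The libraries held 1111, 718, 1695 and 1277 cells, given here and below in the library order of young meninges, young choroid plexus and then both aged tissues likewise, of which 1007, 605, 1408 and 1094 were T cells with a transcript of Cd3d, Cd3e or Cd3g. Molecules were counted by unique molecular identifiers (UMIs). The median depth per T cell lay between 2312.5 UMIs in aged meninges and 3198 in young meninges, and no pair of libraries shared more than 3 cell barcodes. The classes held 160 to 735 cells per library. Ribosomal protein genes took 36.3 and 37.3% of the UMIs of the young meninges and choroid plexus and 30.9 and 32.7% of those of the aged libraries, and since levels are shares of all UMIs, values with these genes left out of the total are given where they matter. T cell markers were found in all T cells by definition, since a Cd3d, Cd3e or Cd3g UMI was required. Markers of neutrophils were found in none, and markers of macrophages in at most 3.15% of the cells of any class. Macrophage UMIs were most abundant in aged choroid plexus CD4 cells, at 193 against 30.2 CPM in the young, and all 139 of them lay in 2 cells. UMIs of 4 B cell genes were found in 14.6 to 51.2% of cells, with a summed level of 65.2 to 263 CPM (counts per 1e6 UMIs), although T cells had been sorted. In young meningeal CD8 cells, where the share was highest, Cd79a and Ms4a1 had no UMI and only Cd79b and Ighm were found. These B cell UMIs were fewer in aged libraries, 157 against 237 CPM in the meninges and 139 against 210 CPM in the choroid plexus over all T cells. Those of 5 gamma-delta T cell genes were more, 36.1 against 18.2 and 107 against 14.8 CPM. That gamma-delta difference lay mainly in CD8 cells, at 91.7 against 23.7 CPM in the meninges and 181 against 18.9 in the choroid plexus. Meningeal CD4 and neither cells had 5.93 against 7.90 and 20.8 against 21.2 CPM. For the choroid plexus these were 12.5 against 6.04 and 44.1 against 17.4 CPM. The part of such cells in the CD8 age differences was not tested. Natural killer genes were also higher in aged libraries, at 53.3 against 29.8 CPM in the meninges and 45.4 against 21.2 in the choroid plexus. Endothelial genes were lower, at 19.5 against 54.0 and 19.7 against 48.2 CPM. Of the 3 endothelial genes only Pecam1 had a UMI in the CD4, CD8 or neither class of any library. Over all T cells Cdh5 was also found in young choroid plexus, and Cldn5 had no UMI in any library. In any class natural killer genes summed to at most 98.3 CPM, endothelial genes to 74.5, fibroblast genes to 1.15 and choroid plexus epithelial genes to 164 CPM in any class. Leaving out cells with a B cell, erythroid or macrophage UMI kept the sign of all 6 age differences of the sum below. Such cells were 28.6 to 50.7% of T cells. The part of these UMIs in the age differences was not otherwise tested.

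Together the 10 genes made up between 2150 and 3772 CPM, the sum over a library and class, and rested on 38407 UMIs in the 12 profiles of library and class. Gapdh alone gave 46.6 to 55.2% of these UMIs, Ldha 12.6 to 20.4%, Aldoa 10.0 to 16.3%, Pkm 7.54 to 12.02% and Pgk1 4.51 to 5.73%. The transporters, hexokinases and Pfkp together gave the small remainder, and each of them had between 141 and 577 UMIs over all profiles. The summed level was lowest in the young choroid plexus, with 2150 CPM in CD8 cells (95% interval 2037 to 2267), 2230 in CD4 cells (2101 to 2366) and 2402 in cells with neither (2296 to 2512). It was next higher in CD8 cells of young meninges at 2726 CPM (2627 to 2827) and of aged choroid plexus at 2757 (2679 to 2836), in young meningeal cells with neither at 2985 (2898 to 3073) and in aged meningeal CD8 cells at 3053 (2940 to 3169). The highest levels were those of aged meningeal cells with neither at 3457 CPM (3370 to 3546), aged choroid plexus cells with neither at 3520 (3405 to 3639), young meningeal CD4 cells at 3532 (3409 to 3658), aged choroid plexus CD4 cells at 3631 (3493 to 3772) and aged meningeal CD4 cells at 3772 (3653 to 3893). Neighbours in the order had overlapping intervals except at the steps from 2402 to 2726, from 2757 to 2985 and from 3053 to 3457 CPM. All intervals are exact Poisson or binomial intervals that cover counting error only, and no p-value can be given for 1 library per condition.

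**Figure D1:**
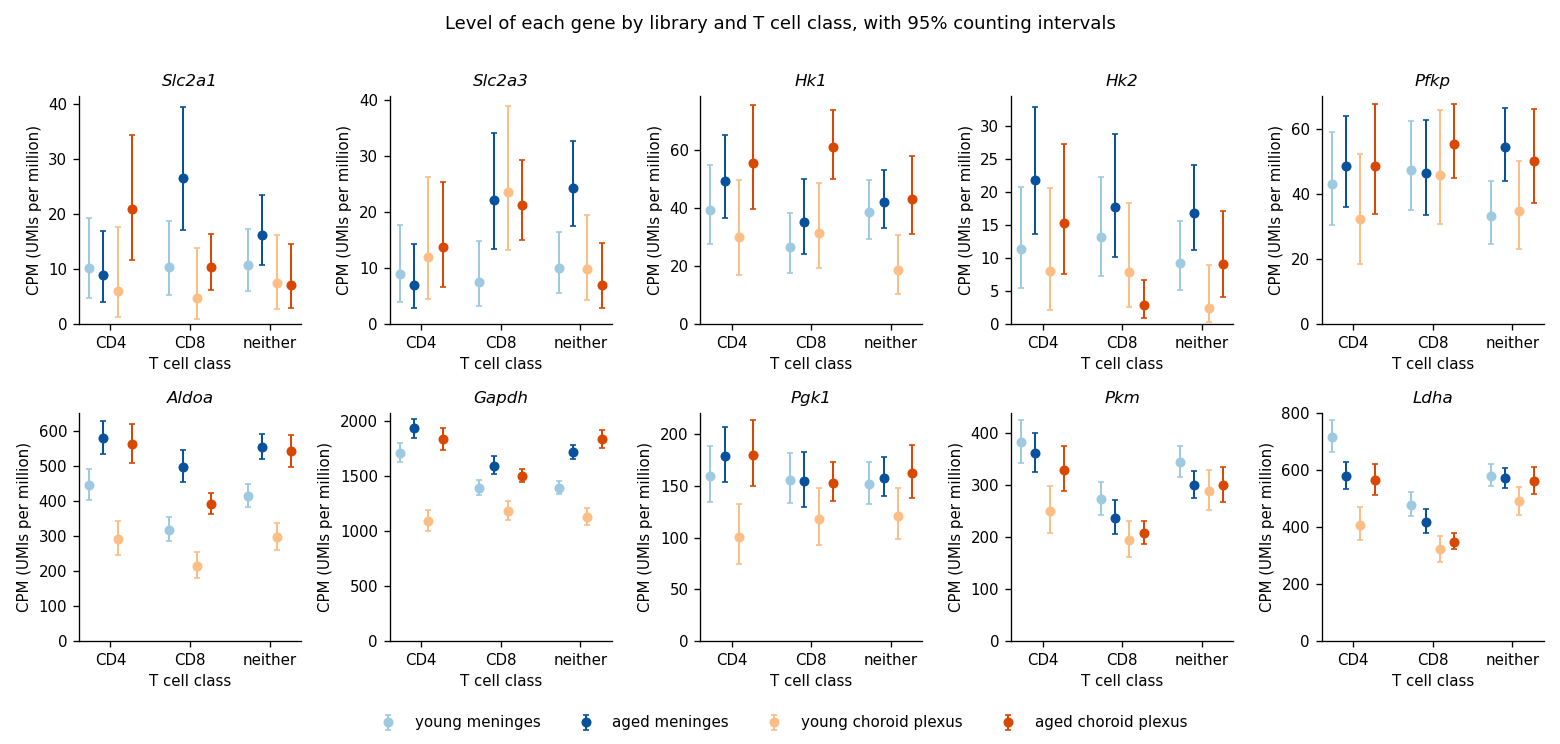
Level of each of the 10 genes (vertical axis, CPM) in CD4, CD8 and neither T cells of the 4 libraries; points are summed UMIs scaled to CPM and bars 95% counting intervals. For Aldoa and Gapdh the young choroid plexus point is the lowest of the 4 libraries in every class, and the transporter and hexokinase panels rest on few UMIs and have wide bars.

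Of the glucose transporters, Slc2a1 (GLUT1, which T cells add to their surface on activation) was counted with 9, 11 and 16 UMIs in CD4, CD8 and neither cells of young meninges, 9, 24 and 28 in aged meninges, 3, 3 and 6 in young choroid plexus and 15, 18 and 7 in aged choroid plexus. These are levels of 4.73 to 26.5 CPM, with the highest in aged meningeal CD8 cells. Slc2a3 (GLUT3, a high-affinity transporter) had 8, 8 and 15 UMIs in young meninges, 7, 20 and 42 in aged meninges, 6, 15 and 8 in young choroid plexus and 10, 37 and 7 in aged choroid plexus. Aged meninges stood above young meninges for Slc2a3 in CD8 cells at 22.1 against 7.57 CPM and in cells with neither at 24.2 against 9.96 CPM. On the log2 scale after adding 10 CPM these differences were 0.87 and 0.78, and the intervals of the ratios without the addition were 0.30 to 2.94 and 0.40 to 2.24. All later log2 differences and intervals in the text are given in this way. Slc2a1 in meningeal CD8 cells was 26.5 against 10.4 CPM, a log2 difference of 0.84 (0.26 to 2.53). In CD4 cells neither transporter differed beyond counting error between aged and young meninges. In the choroid plexus no class had a transporter ratio whose interval lay off 0. Slc2a3 was the only one of the 10 genes whose level across the 12 profiles ran against that of the sum of the other 9 (Pearson r = -0.28, given as a description over profiles that share libraries). It was seen in 0 to 2.82% of cells after each cell had been thinned to 1000 UMIs, so its cells could not be told apart from cells in which its molecules were missed.

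The hexokinases differed in their level. Hk1, the constitutive form bound to mitochondria, had 39.5, 26.5 and 38.5 CPM in CD4, CD8 and neither cells of young meninges and 49.4, 35.4 and 42.1 in aged meninges. The choroid plexus had Hk1 levels of 30.2, 31.5 and 18.6 CPM in the young and 55.4, 61.1 and 43.1 in the aged library, higher in the aged library in all 3 classes, with log2 differences of 0.70 (-0.01 to 1.84), 0.78 (0.26 to 1.72) and 0.89 (0.34 to 2.17). In the meninges the Hk1 differences were 0.26, 0.31 and 0.10 and all 3 intervals crossed 0. Hk2, the inducible form, had only 2 to 29 UMIs in any profile. Its level was 21.7, 17.7 and 16.7 CPM in aged meninges, 11.3, 13.2 and 9.29 in young meninges, 15.2, 2.88 and 9.02 in aged choroid plexus and 8.05, 7.88 and 2.48 in young choroid plexus. Over all T cells Hk2 had 17.7 CPM in aged against 11.1 in young meninges (67 and 39 UMIs, 0.39 on the log2 scale, 0.08 to 1.28), while the choroid plexus libraries, at 6.84 and 5.91 CPM, did not differ beyond counting error.

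Pfkp, the platelet-type phosphofructokinase, varied least of the low-level genes, from 32.2 to 55.3 CPM. It was 54.3 against 33.2 CPM in meningeal cells with neither (0.57, 0.20 to 1.23) and its other 5 age differences had intervals that crossed 0. Aldoa, the aldolase of muscle and lymphocytes, was higher in the aged library in every class of both tissues. In the meninges it was 446, 318 and 415 CPM in young CD4, CD8 and neither cells and 581, 498 and 556 CPM in aged ones. Choroid plexus levels were 292, 216 and 297 CPM in young and 564, 392 and 542 in aged cells. The log2 differences of Aldoa were 0.37 (0.20 to 0.57), 0.63 (0.44 to 0.86) and 0.41 (0.28 to 0.57) in meningeal cells and 0.93 (0.67 to 1.23), 0.83 (0.59 to 1.14) and 0.84 (0.64 to 1.09) in the choroid plexus. After thinning, Aldoa was seen in 28.5% of young and 42.6% of aged meningeal T cells and in 21.5% of young and 37.0% of aged choroid plexus T cells (unthinned 66.3, 68.2, 52.4 and 68.5%). Every cell type uses these genes, so no cell type lacks them and no background share could be set beside these.

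In the payoff phase Gapdh, the dehydrogenase that makes NADH, had 1713, 1395 and 1391 CPM in young meninges and 1935, 1595 and 1718 in aged meninges. In the choroid plexus it had 1091, 1187 and 1130 CPM in the young and 1838, 1504 and 1837 in the aged library. Its log2 difference with age was 0.17, 0.19 and 0.30 in meningeal cells and 0.75, 0.34 and 0.70 in the choroid plexus, and all 6 intervals lay above 0. Many processed pseudogenes share its sequence, so its count is uncertain where reads could be divided among them. Pgk1, the first ATP-making kinase of the pathway, had 160, 156 and 152 CPM in young and 179, 155 and 158 in aged meninges. It had 101, 118 and 121 CPM in young and 180, 153 and 162 in aged choroid plexus, so that the young choroid plexus alone lay low. Pkm, pyruvate kinase, whose M1 and M2 forms these counts cannot tell apart, had 383, 272 and 344 CPM in young meninges and 361, 238 and 300 in aged meninges. Its choroid plexus levels were 250, 194 and 289 CPM in the young and 330, 208 and 300 in the aged library. Only in CD4 cells did the choroid plexus difference of Pkm have an interval above 0 (0.39, 0.08 to 0.73), while the meningeal difference in cells with neither lay below 0 (-0.19, -0.38 to -0.02).

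Ldha, the lactate dehydrogenase subunit that favours lactate, showed opposite age differences in CD4 cells of the 2 tissues. It was 718 CPM in young and 581 CPM in aged meningeal CD4 cells (636 and 588 UMIs), a log2 difference of -0.30 (-0.47 to -0.14). In choroid plexus CD4 cells it was 409 CPM in the young and 565 in the aged library (203 and 408 UMIs), a difference of 0.46 (0.22 to 0.72). In CD8 cells it had 479, 419, 322 and 349 CPM in young and aged meninges and young and aged choroid plexus, and in cells with neither 581, 571, 491 and 563 CPM. The aged libraries of both tissues therefore had like Ldha levels in CD4 cells, and the young libraries stood far apart on either side of them.

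The comparison of aged with young libraries was the study's main question. The summed level of the 10 genes was higher in the aged library in all 3 classes of both tissues. In the choroid plexus it was 3631 against 2230 CPM in CD4 cells, a 1.63-fold level (1.52 to 1.75), 2757 against 2150 CPM in CD8 cells, 1.28-fold (1.21 to 1.36), and 3520 against 2402 CPM in cells with neither, 1.47-fold (1.39 to 1.55). In the meninges it was 3772 against 3532 CPM in CD4 cells, 1.07-fold (1.02 to 1.12), 3053 against 2726 CPM in CD8 cells, 1.12-fold (1.06 to 1.18), and 3457 against 2985 CPM in cells with neither, 1.16-fold (1.11 to 1.204). The median gene with at least 20 UMIs moved by 0.08, 0.04 and 0.05 on the log2 scale in meningeal CD4, CD8 and neither cells and by 0.16, 0.12 and 0.13 in the choroid plexus. With ribosomal, mitochondrial and receptor genes left out of the total, the CD4, CD8 and neither differences of the sum became -0.017, 0.031 and 0.10 for meningeal cells and 0.57, 0.25 and 0.42 in the choroid plexus on the log2 scale. The difference of meningeal CD4 cells thus changed its sign and those of the choroid plexus did not. It also became -0.093 when a class needed at least 2 UMIs, and 0.014 with Gapdh left out of the sum. The same change of total moved the median of all genes by -0.09 to -0.12 in the meninges and by -0.08 to -0.11 in the choroid plexus. The meningeal CD8 difference also depended on the setting. It was 0.16 in the main setting, 0.53 with cells thinned to 1000 UMIs and 0.40 without cells holding a UMI of Mki67 or Top2a. Those Mki67 or Top2a cells were 12 of 254 young meningeal CD8 cells and held 25.2% of the UMIs of the 10 genes there. In bulk sums of a class, fewer cells with a transcript and fewer transcripts per cell cannot be told apart.

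**Figure D2:**
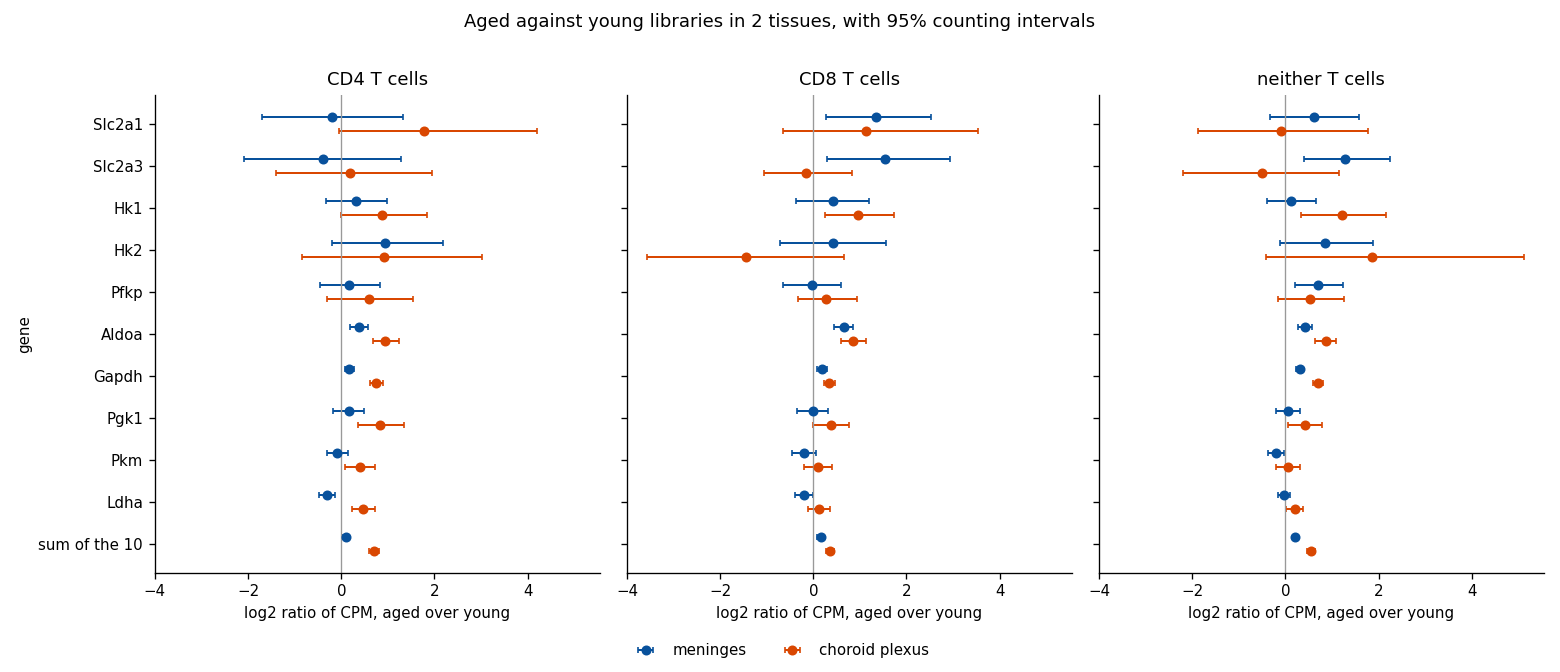
Log2 ratio of CPM of the aged over the young library, with nothing added, for each of the 10 genes and their sum (rows) in CD4, CD8 and neither T cells (panels); points are ratios in the meninges and the choroid plexus and bars 95% counting intervals. Aldoa and Gapdh lie right of 0 in all panels and further right in the choroid plexus, and Ldha in CD4 cells lies left of 0 in the meninges (-0.31) and right of 0 in the choroid plexus (0.47).

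A gene was counted as past the size rule when its log2 difference, after adding 10 CPM, was at least 1 and the higher library had at least 20 UMIs. None of the 10 genes passed it in either direction in any of the 6 comparisons of age. Of all genes with enough UMIs, 4.23, 3.20 and 3.44% passed it upwards in meningeal CD4, CD8 and neither cells and 1.86, 1.83 and 1.42% downwards. For the choroid plexus 7.27, 2.46 and 4.62% passed upwards and 1.92, 0.872 and 1.83% downwards. At a lower size of 0.5 on the log2 scale, 1 of 8 measured members passed upwards in meningeal CD4 cells, where 16.4% of all genes did, 3 of 9 in CD8 cells (14.2%) and 2 of 10 in cells with neither (13.2%). Of the choroid plexus comparisons, 4 of 7 passed in CD4 cells (22.5%), 2 of 8 in CD8 cells (15.5%) and 3 of 7 in cells with neither (16.9%). No member passed downwards at 0.5, and of all genes 8.52, 9.37 and 7.51% did in meningeal cells and 7.66, 4.82 and 6.95% in the choroid plexus. The members past 0.5 in choroid plexus CD4 cells were Hk1, Aldoa, Gapdh and Pgk1. Some counted members had 20 UMIs in the aged library only, as had some of all genes under the same filter. In meningeal cells these were Hk2 in CD4 (22 and 10 UMIs, aged and young), Slc2a1 (24 and 11) and Slc2a3 (20 and 8) in CD8 and Slc2a3 in neither cells (42 and 15). In the choroid plexus it was Hk1 in CD4 (40 and 15) and neither cells (43 and 15). Their part in the counts is no support for a difference. The median over the measured members was 0.16, 0.19 and 0.32 in meningeal cells and 0.70, 0.28 and 0.43 in the choroid plexus.

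The tissue comparison set the young libraries further apart than the aged ones. Over all T cells the 10 genes had 3039 CPM in young meninges (2981 to 3097) and 2303 in young choroid plexus (2238 to 2370), a log2 difference of -0.40 (-0.45 to -0.35). In the aged libraries they had 3455 CPM in meninges (3396 to 3514) and 3198 in choroid plexus (3140 to 3256), a difference of -0.11 (-0.15 to -0.08). In the young libraries 9 of the 10 genes were lower in the choroid plexus, all except Slc2a3, and 5 had intervals off 0, namely Aldoa, Gapdh, Pgk1, Pkm and Ldha. In the aged libraries 9 of the 10 were again lower in the choroid plexus, and 6 had intervals off 0, namely Slc2a1, Hk2, Aldoa, Gapdh, Pkm and Ldha. Hk1 alone was higher there, at 57.2 against 41.7 CPM (0.38, 0.15 to 0.77), and the lowest ratio was that of Hk2, at 6.84 against 17.7 CPM (-0.72). Among all genes with at least 20 UMIs, 42.9% were higher in the choroid plexus in the young libraries and 50.7% in the aged ones. The median of these genes was -0.04 in the young and 0.004 in the aged libraries. CD8 cells were 43.2% of T cells in aged choroid plexus and 19.96% in aged meninges. The aged choroid plexus sum was 3631 against 3772 CPM in CD4, 2757 against 3053 in CD8 and 3520 against 3457 in neither cells. Members lower there were 5 in CD4 cells (0 intervals off 0), 8 in CD8 cells (4) and 6 in cells with neither (1). Of those higher there, 1 interval lay off 0 in CD8 cells and 1 in cells with neither. Among all genes with at least 20 UMIs, 45.9, 56.1 and 47.7% were higher in aged choroid plexus in CD4, CD8 and neither cells. The counts of members higher or lower in CD4 cells and in cells with neither thus lay near the share of all genes. The share of all genes with an interval off 0 was not computed. The counts of such intervals, here and over all T cells, therefore cannot be read as a result about the members. The part of class mix in the tissue difference was not tested. Stress genes and markers of other cells moved with tissue as well. The 6 dissociation and stress genes, among them Fos and Jun, summed to 840 and 1147 CPM in young and aged meninges against 311 and 326 CPM in the choroid plexus. Haemoglobin genes summed to 218 and 343 CPM in young and aged meninges and had only 3 and 6 UMIs in those of the choroid plexus, 1.48 and 1.64 CPM. The part of these in the tissue difference was not tested.

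CD8 cells had a lower summed level than CD4 cells of the same library in young meninges (-0.37 on the log2 scale, -0.45 to -0.30), aged meninges (-0.30, -0.38 to -0.23) and aged choroid plexus (-0.40, -0.47 to -0.33), and the young choroid plexus classes did not differ beyond counting error (-0.05, -0.17 to 0.06). The median gene with at least 20 UMIs was also lower in CD8 cells, by -0.13, -0.16, -0.06 and -0.06 in the same order. Only 34.4, 31.4, 42.1 and 44.0% of these genes were higher in CD8 cells. Ldha was lower in CD8 cells in all 4 libraries, by -0.57 and -0.46 in young and aged meninges and -0.34 and -0.68 in young and aged choroid plexus. Pkm was also lower in all 4, by -0.47, -0.59, -0.35 and -0.64, although the interval of the young choroid plexus value reached 0.01. Aldoa was lower in all 4 as well, by -0.47, -0.22, -0.42 and -0.51. Gapdh was lower by -0.29, -0.28 and -0.29 in young meninges, aged meninges and aged choroid plexus, and its interval crossed 0 in young choroid plexus. Pgk1 and Pfkp differed between the classes by less than counting error in every library. With ribosomal, mitochondrial and receptor genes together left out of the total, the differences of the sum were -0.23 in young meninges, -0.18 in aged meninges and -0.31 in aged choroid plexus. The median of all genes was then -0.0036, -0.058 and -0.0006.

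The levels also differed between T cells grouped by UMIs of marker genes. Ccr7, the homing receptor of naïve and central memory T cells, was detected in 59.7 and 54.7% of T cells of young meninges and choroid plexus and in 9.52 and 9.87% of those of the aged libraries. A cell without a Ccr7 UMI can be one whose transcript was missed. Ccr7-positive cells were also deeper, with median UMIs of 3261, 3082, 3020 and 3754 in library order against 3091, 2919, 2242.5 and 2752. Cells without a Ccr7 UMI had a higher summed level of the 10 genes in every library. They had 3861 against 2500 CPM in young meninges, a log2 difference of 0.63 (0.57 to 0.68), and 2624 against 2051 CPM in young choroid plexus (0.35, 0.27 to 0.44). In aged meninges they had 3554 against 2729 CPM (0.38, 0.30 to 0.47) and in aged choroid plexus 3262 against 2754 CPM (0.24, 0.16 to 0.33). By class, the aged choroid plexus difference had an interval off 0 only in CD8 cells (0.38, 0.25 to 0.52). It was 0.09 (-0.08 to 0.26) in CD4 cells and 0.13 (-0.02 to 0.28) in cells with neither. Gapdh was higher in cells without a Ccr7 UMI in all 4 libraries, by 0.77, 0.53, 0.45 and 0.25 in library order. Pfkp was also higher in each, at 56.0 against 29.6, 48.0 against 31.7, 54.5 against 30.7 and 53.3 against 39.0 CPM, with intervals off 0 in the meninges. Ldha differed beyond counting error in the young libraries (0.38 and 0.26), while in the aged libraries its intervals crossed 0.

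Cells with a UMI of Mki67 or Top2a, genes of dividing cells, had the highest summed level of the gates in each library, 5816 CPM in young meninges (5513 to 6132), 3951 in young choroid plexus (3664 to 4255), 4538 in aged meninges (4320 to 4765) and 4025 in aged choroid plexus (3851 to 4206). They were 3.97, 4.96, 5.18 and 7.59% of T cells and held 12.9, 15.003, 12.4 and 17.1% of the UMIs of the 10 genes. Their libraries also differed in depth, with median UMIs of 3801.5, 4279, 3739 and 4843 per cycling cell. Among cells with a UMI of Cxcr3, a chemokine receptor of effector and memory cells, the sum was 4596 CPM in young meninges, 3253 in young choroid plexus, 3744 in aged meninges and 3419 in aged choroid plexus. Among those with a UMI of Gzmk, a granzyme of effector memory cells, it was 4753, 3314, 3540 and 3091 CPM. Foxp3-positive cells, which carry the factor of regulatory T cells, had 3570 CPM in young meninges, 3851 in aged meninges and 3834 in aged choroid plexus, and too few were found in young choroid plexus.

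**Figure D3:**
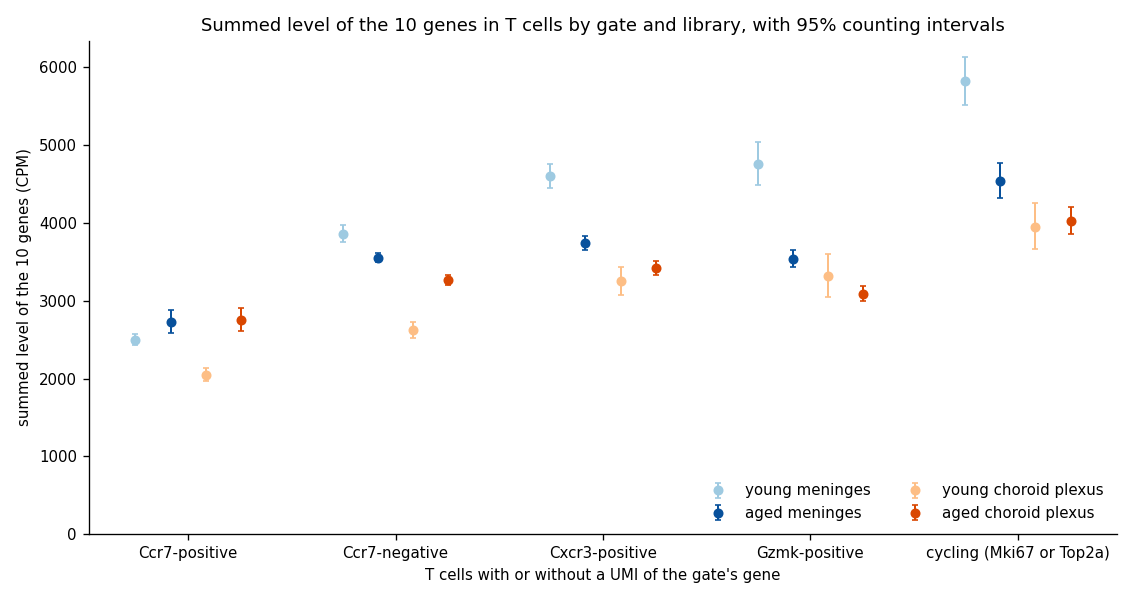
Summed level of the 10 genes (vertical axis, CPM from 0) in T cells with or without a Ccr7 UMI and in T cells with a UMI of Cxcr3, Gzmk or of Mki67 or Top2a (horizontal axis), by library; points are summed UMIs scaled to CPM and bars 95% counting intervals. The young meninges point is second lowest among Ccr7-positive cells (2500) and highest in the other 4 gates, and cycling cells have the highest level of each library.

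Read within these gates, the age difference of the meninges was not the same as over all cells. Among Ccr7-negative meningeal cells the aged library lay below the young one, at 3554 against 3861 CPM (-0.12 on the log2 scale, -0.17 to -0.07), and among Ccr7-positive cells above it, at 2729 against 2500 CPM (0.13, 0.04 to 0.22). Among Ccr7-positive meningeal cells only those with neither had an interval off 0 (0.23, 0.10 to 0.36). The Ccr7-positive difference was 0.08 (-0.10 to 0.25) in CD4 cells and -0.05 (-0.25 to 0.14) in CD8 cells. As in Ccr7-negative cells, the aged level was lower among Cxcr3-positive (-0.30, -0.36 to -0.24), Gzmk-positive (-0.42, -0.52 to -0.33) and cycling meningeal cells (-0.36, -0.46 to -0.25). The young meninges held 53 Gzmk-positive and 40 cycling cells and the young choroid plexus 35 and 30. These intervals do not cover spread between so few cells. The Gzmk-positive difference was not computed without cycling cells. In the choroid plexus the aged library was higher among Ccr7-negative (0.31, 0.25 to 0.38) and Ccr7-positive cells (0.42, 0.33 to 0.52). In choroid plexus CD8 cells the Ccr7-negative difference was 0.09 (-0.01 to 0.20), against 0.57 in CD4 cells and 0.41 in cells with neither. Choroid plexus Cxcr3-positive (0.07, -0.02 to 0.16), Gzmk-positive (-0.10, -0.23 to 0.03) and cycling cells (0.03, -0.10 to 0.15) of the 2 ages did not differ beyond counting error. With dividing cells left out, the Ccr7-negative meningeal difference was -0.024 and the Cxcr3-positive one -0.12. When every cell counted equally, by the mean of CPM per cell, these differences were 0.015 and -0.15, and with cells thinned to 1000 UMIs they were 0.094 and -0.15. The sign of the Ccr7-negative meningeal difference therefore depended on how cells were weighted.

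The members took unequal parts in the differences within gates. Among Ccr7-negative meningeal cells Ldha was 680 CPM in the young and 538 in the aged library (-0.33, -0.45 to -0.22) and Pkm 406 and 311 CPM (-0.37, -0.53 to -0.24). Aldoa went the other way in the same cells, from 489 to 575 CPM (0.23, 0.11 to 0.36), and Gapdh was 1966 and 1809 CPM (-0.12, -0.19 to -0.05). In Ccr7-negative choroid plexus cells Aldoa was 293 CPM in the young and 492 in the aged library (0.73, 0.56 to 0.94), Hk1 29.1 and 57.7 (0.79, 0.39 to 1.64) and Pgk1 116 and 159 (0.43, 0.15 to 0.78). Ldha there was 463 and 468 CPM, a difference of 0.02 (-0.14 to 0.18). Aldoa was thus higher in the aged library in both Ccr7 gates of both tissues.

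Single cells held few UMIs of the 10 genes. After thinning to 1000 UMIs the median was 2 UMIs in T cells of all libraries except aged meninges, where it was 3. The means were 2.74, 2.21, 3.38 and 3.001 per cell in library order, and the 90th percentiles 5, 5, 6 and 6. T cells without any UMI of the 10 genes were 7.41, 14.5, 6.13 and 8.39% of cells. The variance over the mean was 1.36, 1.37, 1.38 and 1.82, where pure counting noise would give a ratio of 1, and the highest single cell, in the aged choroid plexus, had 21 UMIs. Gapdh was seen in 68.8, 61.4, 77.8 and 71.2% of thinned cells, again in library order (95.2, 88.4, 93.9 and 93.4% before thinning), and Ldha in 42.4, 37.6, 39.4 and 33.3% (79.7, 69.1, 67.1 and 65.3%).

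**Figure D4:**
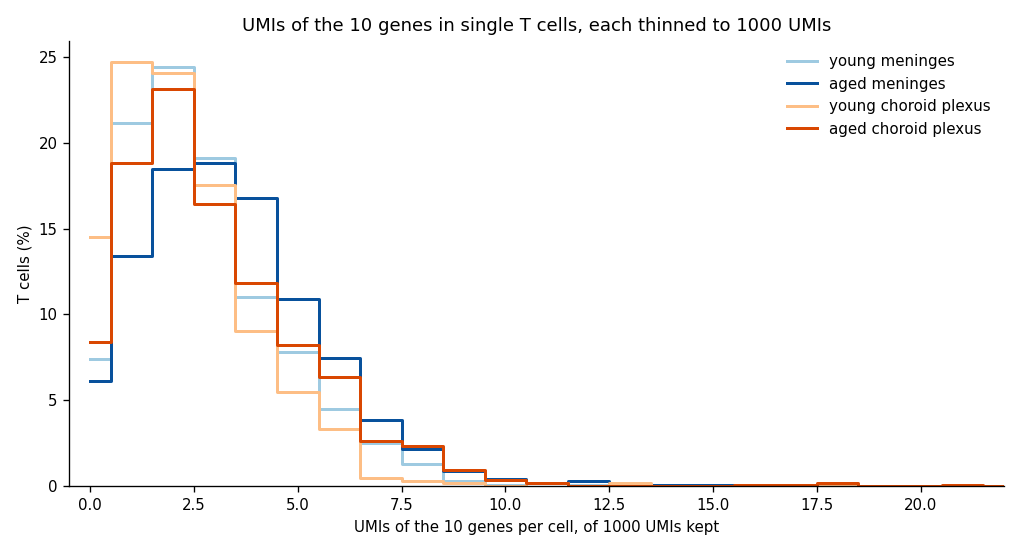
Share of T cells (vertical axis, percent) by the number of UMIs of the 10 genes per cell after thinning each cell to 1000 UMIs (horizontal axis), 1 line per library. All lines have a single peak at 1 to 3 UMIs, the young choroid plexus line is highest at 0 (14.5% of cells) and the aged meninges line is lowest there (6.13%).

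Other genes of the pathway were read from a list of 27, of which 6 to 9 had enough UMIs in any comparison of age. In choroid plexus CD4 cells all 6 were higher in the aged library, with a median of 0.56, in CD8 cells 7 of 9 were, with a median of 0.20, and in cells with neither all 8 were, with a median of 0.51. In the meninges 5 of 8, 4 of 7 and 6 of 9 were higher in CD4, CD8 and neither cells, with medians of 0.14, 0.17 and 0.21. Of all genes with enough UMIs, 58.1, 54.0 and 55.4% were higher in aged CD4, CD8 and neither cells of the meninges and 64.4, 63.4 and 63.6% in those of the choroid plexus, so the meningeal counts lay near the share of all genes. Eno1, enolase, the gene of this list with the most UMIs, had 572, 433, 535 and 481 CPM over all T cells in library order. Its age difference was -0.10 (-0.19 to -0.01) in the meninges and 0.15 (0.03 to 0.27) in the choroid plexus. Ldhb, the lactate dehydrogenase subunit of naïve and oxidative cells, was higher in aged CD8 cells of both tissues, at 26.5 against 11.4 CPM in the meninges (0.77, 0.17 to 2.36) and 22.5 against 11.03 CPM in the choroid plexus (0.63, -0.15 to 2.43). Tpi1, triose-phosphate isomerase, named after its values were seen, was 108 against 44.3 CPM in choroid plexus CD4 cells (1.12, 0.59 to 2.04), the only gene of the 27 past a size of 1 in any comparison of age.

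Of 21 regulators of the pathway, Hif1a and Bhlhe40 were higher in the aged library in every class of both tissues. The list as a whole had both directions. Its measured genes were higher in aged meninges in 6 of 9, 7 of 10 and 6 of 14 cases for CD4, CD8 and neither cells. For the choroid plexus they were higher in 6 of 8, 9 of 11 and 5 of 9, beside 54.0 to 58.1% and 63.4 to 64.4% of all genes in the 2 tissues. Hif1a, the oxygen-regulated subunit of HIF-1, had 83.5 and 180 CPM in young and aged meningeal CD4 cells and 54.3 and 197 in those of the choroid plexus. Its log2 differences in CD4 cells were 1.02 (0.71 to 1.52) and 1.68 (1.25 to 2.51). In cells with neither they were 1.15 (0.94 to 1.58) and 0.80 (0.42 to 1.36), and in CD8 cells 0.43 and 0.44 with intervals that crossed 0. Bhlhe40, a transcription factor of tissue-resident and cytokine-producing T cells, had 31.6 and 175 CPM in meningeal CD4 cells and 12.1 and 118 CPM in choroid plexus CD4 cells (2.15, 1.89 to 3.098, and 2.53, 2.10 to 4.77). It was also higher in aged CD8 cells (1.30 and 1.05) and in cells with neither (1.69 and 1.77). Foxk1, a factor that promotes glycolysis, was lower in aged cells with neither, at 15.6 against 32.5 CPM in the meninges and 19.0 against 33.5 in the choroid plexus, where the interval of the log2 difference crossed 0 (-0.58, -1.74 to 0.09). Txnip, which limits glucose uptake and had the most UMIs of its list, was 265 against 409 CPM in all T cells of the meninges (-0.60, -0.74 to -0.51) and 359 against 382 CPM in the choroid plexus (-0.08, -0.22 to 0.04). In choroid plexus CD8 cells Txnip was higher in the aged library (0.27, 0.04 to 0.51).

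Of 19 targets of oxygen sensing outside the pathway, Pdk1 was lower in the aged library in every class of both tissues. Pdk1, a kinase that limits the oxidation of pyruvate, had 85.8, 65.3 and 92.3 CPM in young meningeal CD4, CD8 and neither cells. Aged meningeal cells had 23.7, 27.6 and 36.4 CPM in the same order. Choroid plexus Pdk1 levels were 90.6, 88.3 and 65.7 CPM in the young and 45.7, 31.7 and 34.1 in the aged library. Its log2 differences were -1.51, -1.001 and -1.14 in meningeal cells and -0.85, -1.24 and -0.78 in the choroid plexus, with all intervals below 0. A lower aged level was also present within Ccr7-positive T cells, at 52.7 against 97.4 CPM in the meninges and 39.0 against 95.04 in the choroid plexus. Kdm3a, a histone demethylase, was lower in aged CD8 cells, at 7.73 against 22.7 CPM in the meninges and 16.1 against 34.7 in the choroid plexus. Mif, a cytokine with the most UMIs of this list, had 430, 417, 438 and 503 CPM over all T cells in library order. The list had both directions. Of its measured genes 9 of 12, 4 of 8 and 6 of 13 were higher in aged CD4, CD8 and neither cells of the meninges and 5 of 7, 8 of 12 and 5 of 8 in the choroid plexus, beside 54.0 to 58.1% and 63.4 to 64.4% of all genes.

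**Figure D5:**
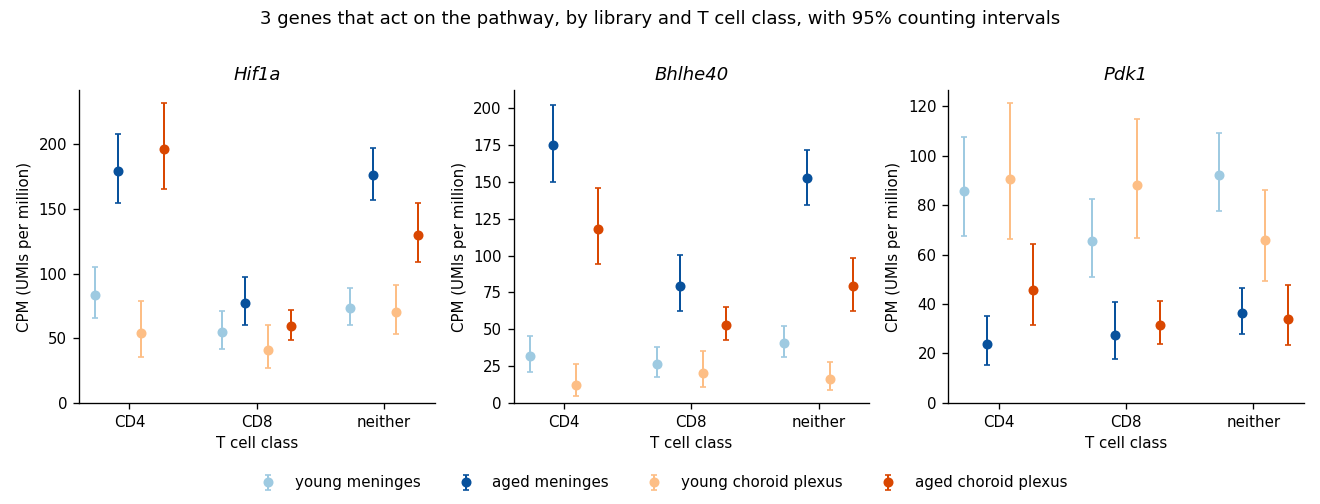
Levels (vertical axis, CPM) of Hif1a, Bhlhe40 and Pdk1 in CD4, CD8 and neither T cells of the 4 libraries; points are summed UMIs scaled to CPM and bars 95% counting intervals. Hif1a and Bhlhe40 points of the aged libraries lie above those of the young libraries of the same tissue in each class, and Pdk1 points lie below them.

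The pathways that branch from glycolysis were counted in the same way, and the shares of all genes given above hold for them too. Of the pentose phosphate genes, 3 of 7, 2 of 6 and 3 of 7 were higher in aged CD4, CD8 and neither cells of the meninges and 3 of 4, 3 of 6 and 3 of 6 in the choroid plexus. G6pdx, the first enzyme of that pathway, and Rpia, an isomerase, passed a size of 1 in meningeal CD4 cells, at 19.8 against 4.51 CPM (20 and 4 UMIs) and 78.0 against 33.9 CPM. They were named after their values were seen. Taldo1, transaldolase, the gene of this list with the most UMIs, had 224, 163, 208 and 174 CPM over all T cells in library order. Of the genes that take pyruvate into the mitochondrion and oxidise it, 4 of 8, 5 of 7 and 5 of 7 were higher in the aged meninges and 1 of 4, 3 of 7 and 5 of 6 in the aged choroid plexus. Mpc2, a subunit of the mitochondrial pyruvate carrier, was 130 against 91.0 CPM in aged and young meninges (0.47, 0.31 to 0.72) and 147 against 126 CPM in the choroid plexus (0.20, -0.0036 to 0.43).

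Over the 12 profiles of library and class, Aldoa (Pearson r = 0.92), Pgk1 (0.90) and Gapdh (0.86) followed the sum of the other 9 members most closely, followed by Pkm (0.67), Ldha (0.67), Hk2 (0.63), Hk1 (0.62), Slc2a1 (0.50) and Pfkp (0.48). Of 2376 other genes with at least 50 CPM on average, the 5 whose log2 level was most like that of the summed members were Ubl3 (0.97), Cd37 (0.97), Rac2 (0.96), Sla (0.96) and Gnb2 (0.96). The profiles share libraries, depth and the total to which levels are scaled, so these values only describe the 12 profiles.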

How the data were processed

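The authors sorted T cells, made 10x Genomics 5′ libraries and deposited raw UMI counts per gene and cell for 4 libraries, without normalization. The file headers name Cell Ranger 3.1.0, while the submitters' processing notes name Cell Ranger 5.1.0 and STAR with mm10. Cells with 200 to 7000 genes and at most 5% mitochondrial UMIs were kept, as in the study's methods. Doublets were marked per library by Scrublet in scanpy 1.11.5 (16, 22, 0 and 5 cells in the order of the report) and left out. Under 0.5% of cells were marked in the aged libraries, so doublets can remain. T cells with UMIs of both Cd4 and Cd8a or Cd8b1 (18, 16, 30 and 33) were left out of the classes. Counts were summed per library and class and scaled to CPM. Log2 ratios had 10 CPM added. Their exact binomial intervals were computed without the addition, so for genes at low levels they are not centred on the stated value. Like the Poisson intervals of levels and the Clopper-Pearson intervals of shares, they cover counting error at 95% only. For shares and values per cell, 1000 UMIs were drawn from each cell, which left out 8, 6, 38 and 21 shallower T cells. Gates needed at least 20 cells.

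The 10 members, the gene lists, gates, sizes and alternatives were chosen with earlier results of these data known. Named from the other lists were genes past a size of 0.5 in the same direction in both tissues of a class, the gene with most UMIs of each list and the 5 most alike genes, by a fixed rule. Tpi1, G6pdx and Rpia were named outside it. A second Aldoa identifier with 1 UMI was left out. The rule of size and the intervals were tried on simulated Poisson counts. These had no spread between cells or mice beyond counting, so they cannot show how the intervals hold with such spread.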

Additional observations from a re-analysis of the deposited data

Results flagged for a closer look

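The age difference of Ldha in CD4 T cells ran in opposite directions in the 2 tissues, with both counting intervals off 0. The log2 difference of aged against young was -0.30 for meningeal and 0.46 for choroid plexus cells, and over the 9 alternative settings it lay between -0.41 and -0.23 and between 0.33 and 0.60. With 1 library per condition the difference between these 2 values was not tested against variation between mice. No other member showed such a reversal in any of the 3 classes.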

How the results depend on the processing

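Each condition was 1 library, so no library could be left out, no p-value was given, and the transporters and Hk2 rested on 2 to 42 UMIs per library and class, so their intervals were wide. No paired analysis was possible because each condition had 1 library and the labels carry no replicate numbers. All values below are log2 differences of the summed level unless counts are named. With cells thinned to 1000 UMIs, the age differences of meningeal CD4, CD8 and neither cells were 0.19, 0.53 and 0.31, the tissue differences of young and aged T cells -0.31 and -0.17, the CD8 against CD4 differences of young and aged meninges -0.54 and -0.21, and the age differences of Ccr7-negative and Cxcr3-positive meningeal cells 0.094 and -0.15. With ribosomal, mitochondrial and receptor genes left out of the total, the age differences were -0.017, 0.031 and 0.10 in meningeal CD4, CD8 and neither cells and 0.57, 0.25 and 0.42 in the choroid plexus, the aged tissue difference -0.069, and the CD8 against CD4 differences -0.23, -0.18 and -0.31 in young meninges, aged meninges and aged choroid plexus. With at least 2 UMIs asked for a class, the age differences of CD4 cells were -0.093 in meningeal and 0.83 in choroid plexus samples, and the CD8 against CD4 differences -0.61 in young meninges and -0.54 in aged choroid plexus. Without Gapdh the age differences were 0.014 and 0.13 in meningeal CD4 and neither cells and 0.40 in choroid plexus cells with neither, the aged tissue difference -0.18, and the CD8 against CD4 differences -0.45, -0.24 and -0.51 in young meninges, young choroid plexus and aged choroid plexus. By the mean of CPM per cell, the meningeal CD8 age difference was 0.38, the aged tissue difference -0.16, the aged meningeal class difference -0.22, and the age differences of Ccr7-positive, Ccr7-negative and Cxcr3-positive meningeal cells 0.23, 0.015 and -0.15. The next 2 settings, and all those of the gates, were chosen after seeing the data. Without cycling cells the CD8 age differences were 0.40 in meningeal and 0.46 in choroid plexus cells, the young meningeal class difference -0.58, and the age differences of Ccr7-negative meningeal, Cxcr3-positive meningeal and Ccr7-negative choroid plexus cells -0.024, -0.12 and 0.39. Without cells holding a B cell, erythroid or macrophage UMI the age differences were 0.38 in meningeal CD8 cells and 0.56 and 0.16 in choroid plexus CD4 and CD8 cells, the tissue differences -0.28 and -0.17 in young and aged T cells, and the class differences -0.53 and -0.19 in young and aged meninges. The cause of these shifts was not tested. The 12 summed differences stayed within their counting intervals when doublets were kept, when the top 5% of doublet scores were left out, without a cell filter, with cells of at least 2000 UMIs and with 1 CPM added.

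The count of members higher in the aged library, 0 at a size of 1 in all 6 comparisons, became 1, 3 and 2 in meningeal CD4, CD8 and neither cells and 4, 2 and 3 in the choroid plexus at a size of 0.5. Thinning gave 1 in meningeal CD8 cells and 1 in each class of the choroid plexus. Adding 1 CPM gave 2 in meningeal CD8 cells and 1 in cells with neither of each tissue. Cells of at least 2000 UMIs gave 1 in choroid plexus cells with neither, and classes by 2 UMIs gave 2 in choroid plexus CD4 cells. The share of all genes was not set beside the counts of these last settings, so they cannot be read as a result about the members. Of the shares of cells with a UMI, 106 of 120 moved without thinning and 60 of 120 with cells thinned to 1500 UMIs.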
